A study of Mus musculus with 23 samples.

Results

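Distal H3K27ac sites that were listed in the earliest cortical neurons and in no later neuronal list were examined. They were chosen by the peak lists themselves. A member is an H3K27ac peak of E11.5 Ebf2-EGFP+ cells on chromosomes 1 to 19 or X that lies over 5 kb from the transcription start site (TSS) of every protein-coding gene and overlaps no H3K27ac peak of either later stage (E13.5, E15.5) of these cells by 1 bp or more. Of the 37055 peaks of the E11.5 list, 37020 lay on these chromosomes and 24102 were distal, and 15952 of them (66.2% of the distal sites) were E11.5-only. The 8 peak lists of the series held 230624 peaks in all. The other 8150 distal sites were shared with a later list, 5992 with E13.5 only, 895 with E15.5 only and 1263 with both. Because the H3K27ac lists of the 3 stages made this choice, these counts are a description.

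The cells came from the cerebral cortex of Tg(Ebf2-EGFP)FB58Gsat mouse embryos, in which regulatory sequence of Ebf2 on a transgene drives EGFP, and all groups carried this transgene. Ebf2-EGFP+ cells were sorted at ages E11.5, E13.5 and, last, E15.5, Ebf2-EGFP- cells only at the first of these ages, and no treatment was named. By the study's account the E11.5 Ebf2-EGFP+ cells are mainly preplate neurons, the E15.5 Ebf2-EGFP+ cells are mostly Cajal-Retzius (CR) neurons, and the E11.5 Ebf2-EGFP- cells are mostly neural progenitors. Each stage therefore differed in cell types as well as in age, which cannot be told apart here, and the sort follows the transgene and not the Ebf2 protein. Each list belongs to 2 ChIP libraries of its group, except E11.5 Ebf2-EGFP- H3K27ac, which belongs to 1. Since a group had 1 list without peak heights, neither a replicate error nor a test of groups could be had, and depth is unknown. Shares below carry Wilson 95% confidence intervals (CI), which cover counting over sites or genes only.

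Acetylation of lysine 27 of histone H3 marks active promoters and active enhancers, the distal stretches of DNA where transcription factors bind and from which they raise the transcription of genes. Trimethylation of the same lysine, H3K27me3, is written by the Polycomb machinery at silenced developmental genes, and a lysine cannot carry both marks at once. The preplate is the first layer of neurons of the cortex. It later splits into the marginal zone, with its CR neurons that secrete Reelin, and the subplate, whose neurons guide the first axons in and out of the cortex. In general, enhancers change more between stages of development than promoters do, which was not tested here.

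For 7 genes of progenitors, neurogenesis, Notch signalling, preplate and CR neurons, patterning and axon guidance, 1 E11.5-only site each is printed, to show what sequence these sites are made of. Each is the widest site of at most 300 bp near the gene with the most E11.5-only sites in its list. The sequences are from the RefSeq genome GRCm38 (mm10), with positions counted from 1. Capitals mark matches, on either strand, to CAGATG (an E-box bound by NEUROG2 and NEUROD factors), ACAAAG (the core bound by SOX factors), CCCNNGGG (the inner letters of EBF sites) and CTTTGA (the core bound by TCF and LEF factors).
Sox1 (chr8:12452037-12452256, + strand): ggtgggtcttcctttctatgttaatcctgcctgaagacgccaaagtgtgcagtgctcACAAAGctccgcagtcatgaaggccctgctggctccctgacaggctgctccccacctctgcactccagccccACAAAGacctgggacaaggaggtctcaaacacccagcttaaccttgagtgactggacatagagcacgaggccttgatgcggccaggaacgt
Neurog1 (chr13:56258630-56258868, + strand): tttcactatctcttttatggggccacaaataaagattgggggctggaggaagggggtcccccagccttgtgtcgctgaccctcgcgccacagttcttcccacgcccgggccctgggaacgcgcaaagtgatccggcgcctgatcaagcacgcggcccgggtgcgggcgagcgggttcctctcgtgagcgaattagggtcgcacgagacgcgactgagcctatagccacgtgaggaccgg
Mfng (chr15:78783514-78783774, + strand): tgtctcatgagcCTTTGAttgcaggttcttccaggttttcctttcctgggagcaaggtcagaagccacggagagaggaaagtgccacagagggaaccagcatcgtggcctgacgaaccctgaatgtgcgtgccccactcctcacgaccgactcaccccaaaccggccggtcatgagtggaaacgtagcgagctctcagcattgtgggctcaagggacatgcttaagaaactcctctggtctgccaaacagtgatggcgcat
Bcl11b (chr12:108046457-108046689, + strand): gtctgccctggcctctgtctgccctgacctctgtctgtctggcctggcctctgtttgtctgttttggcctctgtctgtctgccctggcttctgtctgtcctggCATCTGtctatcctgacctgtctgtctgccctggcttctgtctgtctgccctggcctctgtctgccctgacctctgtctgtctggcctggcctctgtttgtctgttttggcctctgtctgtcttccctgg
Ebf2 (chr14:67215034-67215283, + strand): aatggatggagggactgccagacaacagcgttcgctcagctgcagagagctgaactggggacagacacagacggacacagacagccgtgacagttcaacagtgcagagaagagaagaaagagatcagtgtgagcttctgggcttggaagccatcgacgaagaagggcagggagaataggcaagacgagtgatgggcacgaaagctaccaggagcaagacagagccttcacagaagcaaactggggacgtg
Sfrp1 (chr8:23425985-23426212, + strand): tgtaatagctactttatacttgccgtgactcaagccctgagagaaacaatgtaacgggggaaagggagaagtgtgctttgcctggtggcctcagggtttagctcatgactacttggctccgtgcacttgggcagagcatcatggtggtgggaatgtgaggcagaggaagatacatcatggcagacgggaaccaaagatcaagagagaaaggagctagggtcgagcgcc
Slit1 (chr19:41685311-41685601, + strand): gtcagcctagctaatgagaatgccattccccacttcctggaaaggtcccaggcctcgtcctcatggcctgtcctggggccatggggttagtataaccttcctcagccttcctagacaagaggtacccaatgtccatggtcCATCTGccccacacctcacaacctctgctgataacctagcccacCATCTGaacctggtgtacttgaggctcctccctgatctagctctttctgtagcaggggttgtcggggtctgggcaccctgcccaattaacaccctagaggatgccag

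Positions below are distances of a site's centre from the TSS, negative upstream. The Ebf2 site lay in intergenic sequence at -18.1 kb and held no match to these motifs. Ebf2 is an early neuronal transcription factor and the gene that the transgene reports. Reads from Ebf2 sequence on the transgene cannot be told apart from those of the gene. The nearest E13.5 peak was 12287 bp away and the nearest E15.5 peak 111621 bp. The Sox1 site, at 56.9 kb from the TSS of this progenitor factor, held ACAAAG at 2 places. The Slit1 site lay in an intron, at 58.2 kb from the TSS of this repulsive guidance cue, and held CAGATG at 2 places, both read on the other strand as CATCTG. The Mfng site, with 1 CTTTGA, lay at -10.2 kb from the TSS of this Notch-modifying glycosyltransferase gene, in an intron of the neighbouring Card10. The Bcl11b site was of another kind: 80.3% of its bases were soft-masked as repeat, and it is a short unit repeated in tandem. The Neurog1 site (239 bp, at -6.59 kb, GC content of 63.2%) and the Sfrp1 site (228 bp, in an intron at 14.6 kb) held none either.

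E11.5-only sites were narrow. Their median width was 184 bp, with quartiles of 154 and 232 bp and a range of 142 to 1229 bp, and together they covered 3263 kb. Sites shared with E13.5 only had a median of 212 bp, sites shared with E15.5 only 233 bp and sites shared with both 304 bp. The smallest width in the list, 142 bp, was that of 13% of the E11.5-only sites and of 2.53% of the sites shared with both. The share that was E11.5-only was lower among wider peaks, with 77.5% of distal sites under 160 bp, 72.9% from 160 to under 200 bp, 64.0% from 200 to under 300 bp and 39.2% at 300 bp or more. With no scores, width was the only measure of a peak in the lists.

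**Figure D1:**
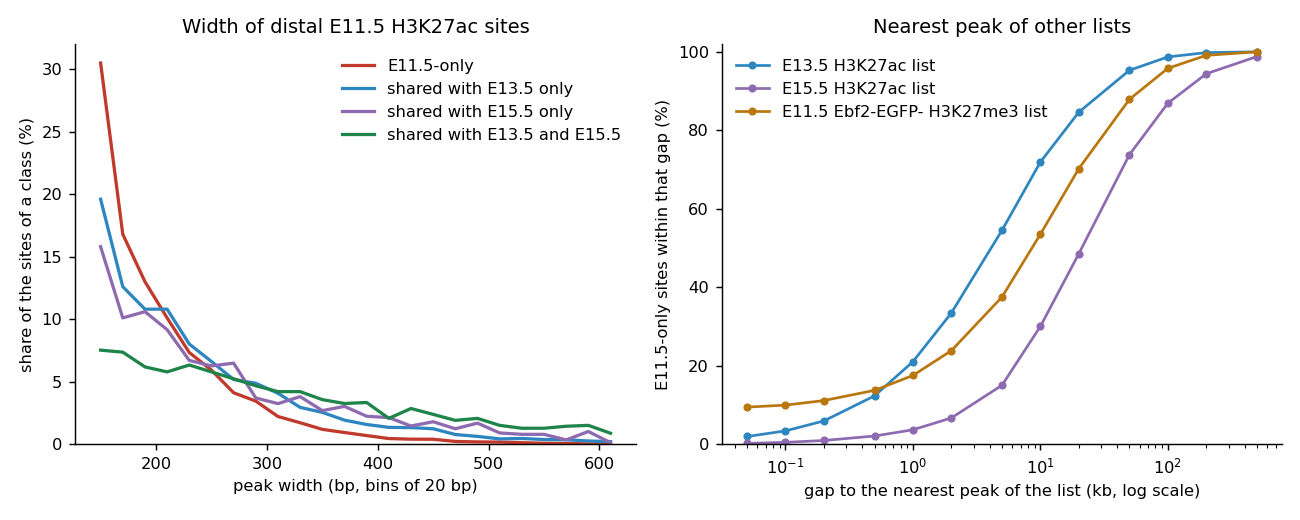
Left, the share of sites of each class (y axis, %) by peak width (x axis, bp, bins of 20 bp, wider peaks not drawn). Right, the share of the 15952 E11.5-only sites (y axis, %) with a peak of another list within a given gap (x axis, kb, log scale). The E11.5-only line starts highest at the narrow end, and 21% of these sites had an E13.5 peak within 1 kb while 3.65% had an E15.5 peak.

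Of the E11.5-only sites 57.9% had a peak of either later list within 5 kb. Gaps from windows of the distal genome were not measured beside these. The gap to the nearest E13.5 peak had a median of 4114 bp, and 54.5% of the sites had such a peak within 5 kb. To the nearest E15.5 peak the median gap was 21069 bp, and 15% had one within 5 kb. These lists differ in length, with 102881 peaks for E13.5 against 25793 for E15.5, and the E13.5 list was the longest of all. At the edge of the rule, 171 E11.5-only sites had a later peak within 20 bp and 599 within 100 bp, while 173 shared sites overlapped a later peak by 20 bp or less. At the other edge, 509 E11.5-only sites lay 5 to 6 kb from a TSS, and 519 E11.5 peaks at 4 to 5 kb had no later overlap. Near TSSs (within 5 kb), 3279 of 12918 E11.5 peaks (25.4%) had no later overlap, against 66.2% of the distal peaks.

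The sites were spread over all 20 chromosomes. On the autosomes the E11.5-only share of distal sites ran from 61.6% (chromosome 8) to 69.7% (chromosome 9). Chromosome X stood apart, with 154 E11.5-only sites of 468 distal sites (32.9%) and 0.90 sites per Mb, against 3.85 to 9.74 per Mb on the autosomes. The E11.5-only sites formed 10309 single sites and 2289 runs of 2 or more, when sites within 12500 bp of each other were joined, and the runs held 35.4% of the sites. A shared distal site lay within 5 kb of 1601 E11.5-only sites, and none lay within 50 kb of 9242 (57.9%). Shared peaks near a TSS were not counted here. How often windows of the distal genome lie this close to a shared site was not measured, so these counts do not show whether such neighbours were few or many. The run with the most sites had 11 over 45.8 kb, at chr17:27069566-27115374, across Itpr3, a calcium release channel of the endoplasmic reticulum. It also held 3 shared E11.5 sites, 20 E13.5 peaks and no E15.5 peak. A run of 9 sites in 21.1 kb lay at Fcgbp (chr7:28084042-28105141), and another of 9 sites in 59.3 kb at 2900026A02Rik (chr5:113123231-113182568). Neither of these held an E15.5 peak, while E13.5 peaks numbered 4 and 19 in this order. How often other spans of such lengths hold no E15.5 peak was not measured.

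The widest E11.5-only sites were not typical of the rest. The widest, of 1229 bp at chr15:76173478-76174706, lay in an exon of Plec, which encodes a cytoskeletal linker protein. It also overlapped an H3K27ac peak of Ebf2-EGFP- cells and had later peaks 741 bp (E13.5) and 455 bp (E15.5) away. A site of 872 bp in an intron of Fhit (chr14:11048894-11049765) was 90.9% repeat and overlapped H3K27me3 peaks of both E11.5 cell groups. The other 3 had 814, 813 and 800 bp, in exons of Espn and Fam160a1 and an intron of Cacna1h. Of these 5, 3 overlapped an H3K27me3 peak of Ebf2-EGFP- cells.

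By position, 48.4% of the E11.5-only sites (7722, CI 47.6 to 49.2) had their centre in an intron, 17.3% (2761, CI 16.7 to 17.9) in an exon and 34.3% (5469, CI 33.6 to 35.0) in intergenic sequence. Of windows tiled over the distal genome, 42.1% lay in introns, 4.1% in exons and 53.8% between genes. Shared sites lay less often in introns (39.5%, CI 38.5 to 40.6) and more often in exons (24.9%, CI 24.0 to 25.9). Among the E11.5-only sites 1566 (9.82%) lay wholly in exons, against 13.8% of the shared sites. The median distance to the nearest TSS was 36.6 kb, and 12170 sites (76.3%) lay within 100 kb of it. Few lay at starts of long non-coding RNAs: 229 sites (1.44%) were within 1 kb of the start of a lincRNA or antisense gene, where all distal sites had 1.85%, sites shared with E13.5 only 1.34%, with E15.5 only 6.15% and with both 6.57%. Within 1 kb of any annotated transcript start lay 11.9% of the E11.5-only sites and 15.3% of all distal sites, with 14.1% of those shared with E13.5 only, 44.2% of those shared with E15.5 only and 44.5% of those shared with both.

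The sites differed from the shared sites in base composition too. Their mean GC content was 55.1% ± 4.69 (SD over 15952 sites), between the 41.5% ± 7.71 of windows tiled over the distal genome and the 65.5% ± 7.05 of sites shared with both later stages. They held 1.95 CpG dinucleotides per 100 bp, against 0.776 in the distal genome and 7.02 in sites shared with both. Repeats made up 17.3% of the bases of E11.5-only sites, against 38.3% in sites shared with E13.5 only and 11.4% in sites shared with E15.5 only. Sites shared with both had 30.9% and the distal genome 35.0%. Of distal sites under 50% GC 94.0% were E11.5-only, and of those at 60% GC or more 32.9%.

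H3K27me3, which the choice of sites did not use, was found at few E11.5-only sites. The list of Ebf2-EGFP- cells that this rests on was broad, with peaks within 5 kb of 48.6% of all protein-coding TSSs, of 13 of 18 progenitor factors, Sox2, Hes1, Nes and Vim among them, of 16 of 18 neurogenic factors and of 4 of 10 broadly expressed genes, Gapdh among them. Among the E11.5-only sites 1374 (8.61%, CI 8.19 to 9.06) overlapped an H3K27me3 peak of E11.5 Ebf2-EGFP- cells, where the share over all distal E11.5 sites was 19.8%. In sites shared with E13.5 only it was 38.9% (CI 37.7 to 40.1), with E15.5 only 26.9% (CI 24.1 to 29.9) and with both 65.4% (CI 62.7 to 68.0). The site in Ebf2 98.0 kb from the TSS (chr14:67331176-67331418) and a site of 510 bp in an exon of Notch1 (chr2:26503397-26503906, GC content of 73.1%) were among the 1374. In Ebf2-EGFP+ cells the shares were lower in each class, and the H3K27me3 lists were shorter too, with 6387, 6721 and 1438 peaks by age against 48963 in Ebf2-EGFP- cells. At E11.5 417 of the sites (2.61%, CI 2.38 to 2.87) overlapped H3K27me3, against 4.04% of all distal sites. At E13.5 152 did (0.953%, against 2.13%) and at E15.5 20 did (0.125%, against 0.249%). Sites shared with both later stages had 10.6%, 10.7% and 2.53%, and sites shared with E13.5 only 6.56%, 3.47% and 0.0668%, so that at E15.5 this last class was below the E11.5-only sites. An H3K27ac peak of Ebf2-EGFP- cells overlapped 18 E11.5-only sites (0.113%, CI 0.0714 to 0.178), against 0.477% of all distal sites, but that list held only 1386 peaks.

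E11.5-only sites had a lower share than all shared sites in each bin of width, GC content and repeat content. At 50 to 60% GC, 7.05% of the E11.5-only sites (CI 6.60 to 7.52) and 21.8% of the shared sites (CI 20.5 to 23.2) overlapped H3K27me3 of Ebf2-EGFP- cells, and at 60% GC or more 23.2% and 58.6%. In sites of 300 bp or more the shares were 15.4% and 55.7%. In sites of 50% repeat or more they were 8.47% and 67.0%, and in the others 8.63% and 30.2%. Whether both marks lay on the same cells was not tested, since the lists come from different sorted groups.

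**Figure D2:**
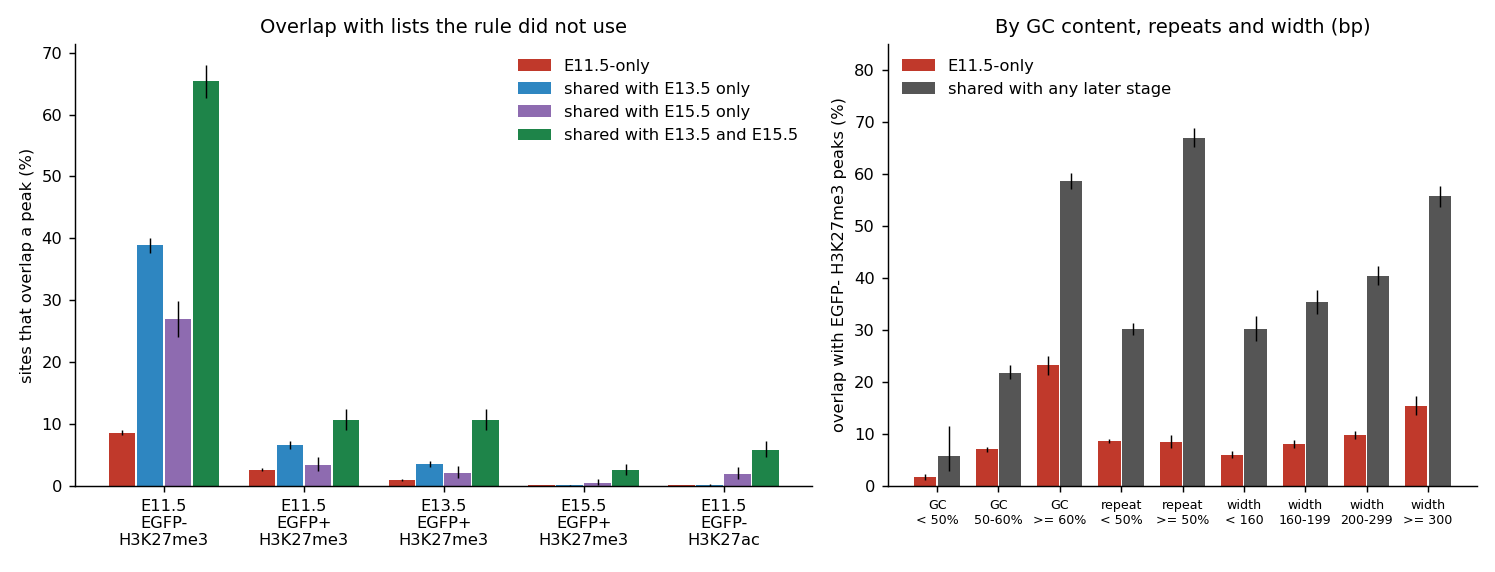
Left, the share of distal E11.5 sites (y axis, %) that overlap a peak of each of the 5 lists the choice did not use (x axis), by class. Right, the share that overlaps H3K27me3 of E11.5 Ebf2-EGFP- cells (y axis, %) in bins of GC content, repeat content and width in bp (x axis), for E11.5-only and shared sites. Bars are shares and lines Wilson 95% CI, and the E11.5-only bar at 8.61% is the lowest of the 4 classes in the first group.

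To see which genes the sites lie near, each site within 100 kb was given to the protein-coding gene with the nearest TSS. The 12170 sites fell to 6946 of 21755 genes (31.9%). Of these genes 4202 had 1 site, 1508 had 2, 910 had 3 or 4 and 326 had 5 or more. Genes with more sites also had a longer distal stretch, the sequence over 5 and up to 100 kb from the TSS that is nearest to it, with a median of 59.6 kb for genes with 1 site and 115 kb for genes with 5 or more. Over all genes there were 0.963 sites per 100 kb of such stretch. The nearest gene need not be the target of a site. Below, a range of distances for a gene is measured from the nearer edge of its sites, and a single distance from the centre of a site.

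Most genes near E11.5-only sites had other distal H3K27ac peaks at later stages. Of the 6946 genes 6262 (90.2%) had a distal E13.5 peak in the same stretch and 3408 (49.1%) a distal E15.5 peak, and 575 (8.28%) had neither. Of all protein-coding genes 66.8% had a distal E13.5 peak and 28.9% a distal E15.5 peak. Their distal stretches were shorter, with a median of 37.7 kb against 71.5 kb for the 6946 genes, and the shares were not matched for this length. At the TSS (within 5 kb), 58.8% of the 6946 genes carried H3K27ac in the E11.5 list, 72.4% in that of E13.5 and 60% in that of E15.5, against 50.4%, 61.4% and 52.7% of all genes. Among the 326 genes with 5 or more sites these shares were 72.4% (CI 67.3 to 77.0), 85.9% and 67.8%. Of the 4086 genes with a site and an acetylated TSS at E11.5, 182 (4.45%) had H3K27ac at the TSS in neither later list, against 4.96% of all genes acetylated there at E11.5. H3K27me3 of Ebf2-EGFP- cells lay at the TSS of 59.1% of the 6946 genes and 77.3% of the 326, against 48.6% of all.

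Of the 10 genes with the most E11.5-only sites 9 are described here, with 9 to 11 sites each. Rbm19, for a ribosome biogenesis protein, had 11 sites, 6 of them in the gene, beside 40 E13.5 and 3 E15.5 peaks. Runx3, a Runt transcription factor, had 10 sites, 8 of them upstream at 14.3 to 93.8 kb, and its TSS carried H3K27ac at E13.5 and not at E11.5 or E15.5. Its stretch held 43 E13.5 peaks and 4 E15.5 peaks.

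Several of the 10 genes were named by position rather than by the gene that hosts the sites. Acaa2, a mitochondrial enzyme of fatty acid oxidation, had 11 sites and no shared site. Of these, 7 lay in the neighbouring Myo5b, a myosin motor gene, and the Acaa2 TSS had H3K27ac at E15.5 only. Gins2, a subunit of the replication helicase, had 10 sites, and 9 of them lay in Gse1, a neighbouring gene. Flrt1, for a transmembrane adhesion protein, had 9 sites within 47.9 kb, all 9 of them in Macrod1 and 3 of those also in Flrt1. Dnah17, an axonemal dynein, had 9 of its 10 sites inside the gene, and 4 of the 10 had an E13.5 peak within 50 bp (22, 48, 33 and 23 bp). Zfp516, a zinc finger gene, and Cstad had 10 sites each, and 2900026A02Rik had 9, all inside the gene.

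Of 16 genes of CR neurons 12 (75%, CI 50.5 to 89.8) had a site, with a median of 2 sites per gene, against 31.9% and a median of 0 over all genes. Their 39 sites came to 2.19 per 100 kb of stretch, where all genes had 0.963. The list is not independent of these cells, since the study named Nhlh2, Ppp2r2c, Chst8 and Slit1 as CR-specific from their RNA. These genes had 2, 5, 2 and 5 of the sites. Ebf2 had 7 sites, 142 to 250 bp wide, 4 of them upstream and 3 inside the gene. Which of these also lie on the transgene is not given, and reads from it and from the gene cannot be told apart here. The stretch of Ebf2 held 2 shared sites, 15 E13.5 peaks and no E15.5 peak, and its TSS carried H3K27ac at E11.5 and E13.5 but not at E15.5. By the study's RNA data Ebf2 was enriched in Ebf2-EGFP+ cells at every stage. Whether acetylation at Ebf2 was lost or was missed by the E15.5 list was not tested. Lhx1, a LIM homeodomain factor of CR neurons, had 5 sites, all upstream in intergenic sequence at 44.9 to 95.4 kb, beside 10 E13.5 peaks and 1 E15.5 peak. Ppp2r2c, a regulatory subunit of protein phosphatase 2A, had 5 sites, of which 4 were inside the gene. Slit1 also had 5, of which 4 were in its introns, 44.4, 53.8, 58.2 and 64.7 kb from the TSS, and the sites at 53.8 and 64.7 kb overlapped H3K27me3 of Ebf2-EGFP- cells. Reln, for Reelin itself, had 1 site, and Trp73, the p73 gene of CR neurons, had none while 11 distal E13.5 peaks were listed for it.

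**Figure D3:**
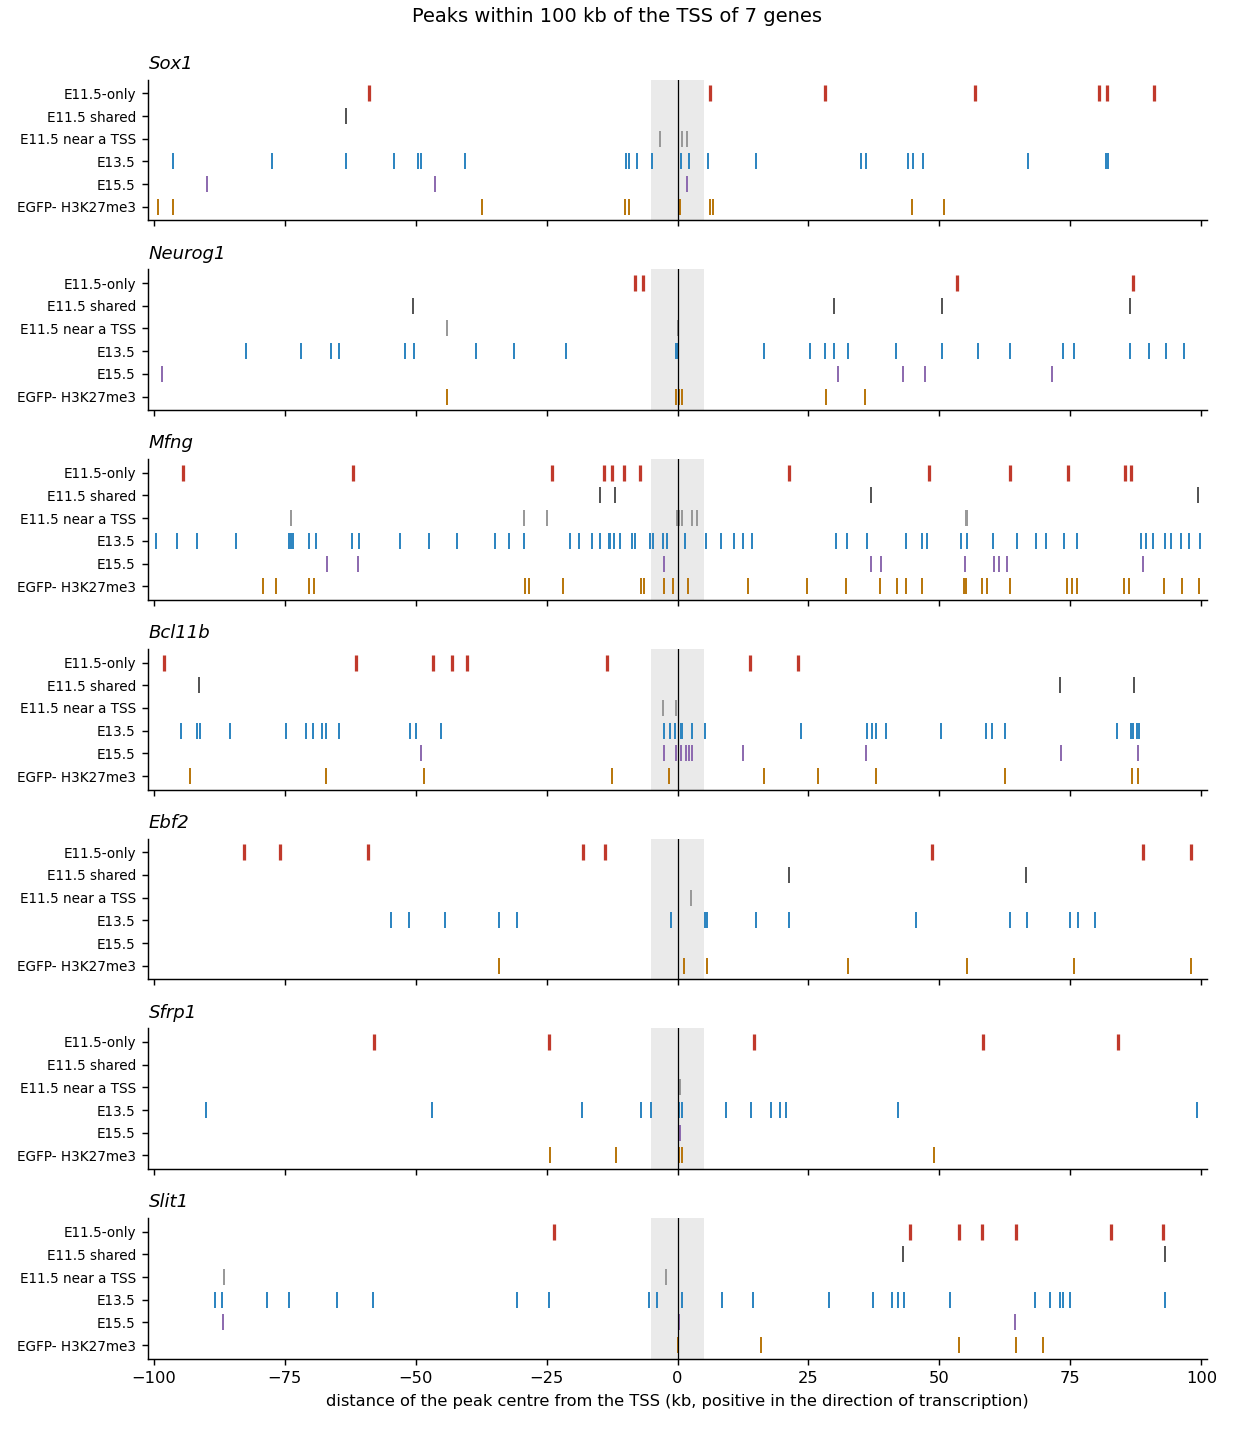
Peaks within 100 kb of the TSS of the 7 genes whose sequences are printed (x axis, distance of the peak centre from the TSS in kb, positive in the direction of transcription). Rows are E11.5-only sites, shared distal E11.5 sites, E11.5 peaks within 5 kb of any coding TSS, E13.5 and E15.5 H3K27ac peaks and H3K27me3 peaks of Ebf2-EGFP- cells, grey marks 5 kb around the TSS, and sites nearest to another gene are drawn too. Around Ebf2 the E15.5 row is empty, and around Sfrp1 no shared site is drawn. The study's RNA data had Ebf2 enriched in Ebf2-EGFP+ cells at E15.5 too.

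Preplate and subplate genes had fewer sites. Of 13 such genes 4 had one (30.8%, CI 12.7 to 57.6), close to the 31.9% of all genes, at 0.846 sites per 100 kb. Bcl11b, which encodes the transcription factor CTIP2, had 7, of which 5 were intergenic. Nxph4, a secreted neurexin ligand of subplate neurons, had 3, all of them upstream within Lrp1. Lpar1, a lysophosphatidic acid receptor, had 3, and Foxp2 had 1. Tbr1 and Nr4a2, transcription factors of early-born neurons, had no E11.5-only site but 3 and 2 shared sites, so their distal E11.5 sites stayed listed later.

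Among 18 progenitor factors 11 (61.1%, CI 38.6 to 79.7) had 1 or more sites, 23 in all. Per 100 kb of stretch this came to 1.02, close to the 0.963 of all genes. Sox1 had 5, all downstream, at 6.14 to 81.8 kb and 158 to 220 bp wide. Emx1 and Lhx2, homeobox genes of the cortical field, had 4 each, and Lhx2 also had 5 shared sites. Sox2 and Pax6 had 1 each, and Nes and Vim, filament genes of progenitors, had none but 2 shared sites each. Of 18 proneural and neurogenic factors 11 (61.1%) had a site, with at most 2 per gene and 17 in all, again 1.02 per 100 kb. Neurog1 had 2, of 239 and 174 bp, which lay in intergenic sequence at -6.59 and -8.12 kb. Neurog2 had 2, of 231 bp in an intron of Zgrf1 and of 178 bp in an intron of Alpk1. Nhlh2, a bHLH factor of young neurons, had 2 upstream, both of 142 bp.

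In the Notch pathway 13 of 22 genes (59.1%, CI 38.7 to 76.7) had a site, with 30 sites and 1.70 per 100 kb. By role, the receptors Notch1 and Notch2 had 4 and 3 and Notch3 none. Of the ligands Dll1 and Dll4 had 1 each, Jag2 2, and Dll3 and Jag1 none. The fringe glycosyltransferases Mfng and Lfng, which tune receptors for their ligands, had 5 and 3, and Rfng none. Of the nuclear partners, the coactivator Maml3 had 4, while Maml1, Maml2 and the DNA-binding factor Rbpj had none. Of the target genes Hes1 and Hey1 had 2 each, Hes5 and Hey2 1 each and Heyl none. Mfng had its 5 sites within 21.2 kb of the TSS, 4 of them upstream in Card10. Of 24 Wnt and BMP signal genes 19 (79.2%, CI 59.5 to 90.8) had a site, with 53 sites and 1.97 per 100 kb. Bmp7, a ligand of the dorsal midline, had 9, of which 7 were inside the gene. They were 142 to 249 bp wide, and its TSS carried H3K27ac at E11.5 and E13.5 but not at E15.5. Lef1 and Tcf7l2, nuclear factors of Wnt signalling, had 5 each.

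Of 24 forebrain patterning genes 9 (37.5%, CI 21.2 to 57.3) had a site, at 0.654 per 100 kb, led by the Wnt antagonist Sfrp1 with 5 and no shared site, and by Lmx1b with 5. Lmx1b, a LIM homeodomain gene, had 37 E13.5 peaks in the same stretch and no H3K27ac at its TSS at E11.5. Among 26 axon guidance genes 14 (53.8%) had a site, at 0.663 per 100 kb against the 0.963 of all genes, and next to Slit1 these were led by the semaphorin receptors Plxna1 with 4 and Plxnd1 with 3, all of them inside the genes. The widest of the 3 in Plxnd1 had 636 bp (chr6:115980005-115980640). Of 17 genes of the neuronal cytoskeleton and migration 12 (70.6%, CI 46.9 to 86.7) had a site, at 0.911 sites per 100 kb, below the 0.963 of all genes. Mapt, the gene of tau, had 4 and no shared site, and Elavl3 and Dpysl3 had 2 each.

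Lists of other kinds gave a scale for these counts. Synaptic genes had a site in 6 of 18 (33.3%), with 4 sites inside the calcium channel gene Cacna1e. Cell cycle genes also had 6 of 18, led by Ccnd1 with 4, Cdk6 with 3 and Aurkb with 2, and GABAergic lineage factors had 5 of 14 (35.7%), with 1 site each. Broadly expressed genes had 3 of 10 (30.0%), and Gapdh had 2. Markers of cells that the cortex holds beside neurons were also near such sites: 8 of 10 endothelial markers (CI 49.0 to 94.3), with Cdh5 and Erg at 3 each and Flt1 and Kdr at 2 each, and 5 of 11 mesenchyme and meninges markers (45.5%), with Col1a1 at 3 and Pdgfra and Foxc1 at 2 each. Of 8 microglia markers only Csf1r had sites (3), and of 8 erythroid markers none (0 of 8, CI up to 32.4%). These lists are short, a few genes stand in more than 1 list, and the genes differ in length of stretch. The erythroid markers had the least, with 142 kb in all. Per 100 kb of stretch, sites numbered 0.358 for GABAergic factors, 0.655 for synaptic genes, 0.813 for mesenchyme and meninges markers, 0.926 for microglia markers, 1.14 for endothelial markers, 1.26 for broadly expressed genes and 1.29 for cell cycle genes. No test was run on the lists, and the part of other cell types in the E11.5-only sites was not tested.

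**Figure D4:**
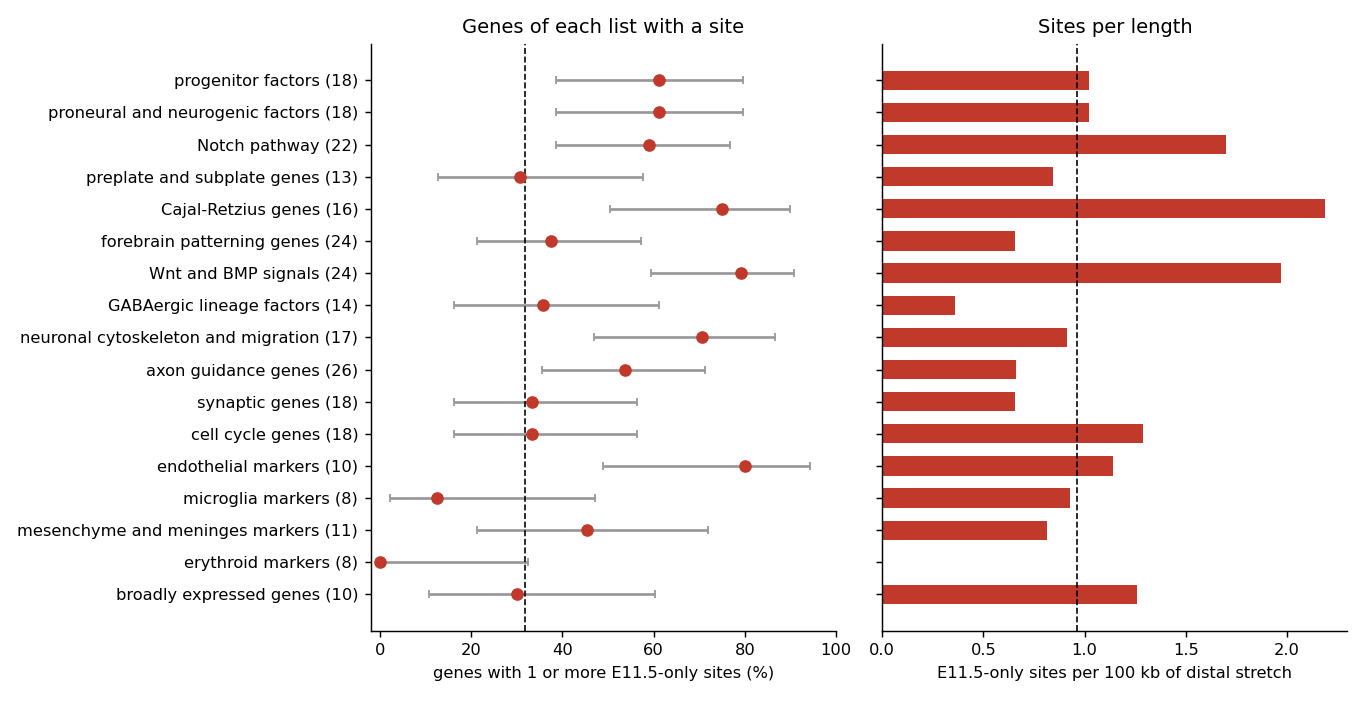
Left, the share of genes in each list with 1 or more E11.5-only sites (x axis, %, points with Wilson 95% CI), the number of genes in parentheses and the dashed line at the 31.9% of all protein-coding genes. Right, E11.5-only sites per 100 kb of distal stretch (x axis), the dashed line at the 0.963 of all genes. Cajal-Retzius genes, some of them named by the study from RNA of these cells, have the longest bar, at 2.19. Erythroid markers have no site, with 142 kb of distal stretch in all.

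The TSSs of the same lists show what the E11.5 Ebf2-EGFP+ list marks beyond the distal sites. H3K27ac lay at the TSS of 13 of 16 CR genes, 12 of 13 preplate and subplate genes, 16 of 18 neurogenic factors and 15 of 18 progenitor factors, and at 7 of 10 broadly expressed genes. It lay at 2 of 10 endothelial, 1 of 8 microglia, 2 of 8 erythroid and 5 of 11 mesenchyme and meninges markers, where 50.4% of all TSSs were marked. The genes of CR, preplate and subplate neurons that the label of the sort calls for were thus marked, and progenitor factors were marked in a like share, so that these genes do not separate neurons from progenitors in this list. Some of the CR genes were named by the study from RNA of these same cells. The list of Ebf2-EGFP- cells marked 2 of 18 progenitor factors and 2 of 10 broadly expressed genes, and its small length limits any comparison with it.

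The letters of 13 motifs were counted on both strands in windows of 200 bp at the site centres. CAGATG, the NEUROG2 and NEUROD E-box, occurred in 19.7% of the E11.5-only sites (CI 19.1 to 20.4), 12.9% of the shared sites (CI 12.1 to 13.6), 9.46% of windows around protein-coding TSSs and 15.1% of the distal genome. Within 100 bp of the centre there were 1.13 matches per kb in E11.5-only sites, against 0.927 at 500 to 1000 bp. In shared sites the values were 0.766 and 0.856. These densities were not matched for GC content. CCCNNGGG, the EBF core, was found in 9.42% of the E11.5-only sites and 17.2% of the shared sites, against 11.4% of the TSS windows and 2.98% of the distal genome. CCCNNGGG reads the same on both strands.

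At 50 to 60% GC, the range used here, most of these differences narrowed. It held 11771 of the 15952 E11.5-only sites but 3484 of the 8150 shared sites, and windows of 60% GC or more were not compared. In windows of 50 to 60% GC, CAGATG was in 20.4% of the E11.5-only sites, 18.5% of the shared sites and 17.4% of the distal genome. For CCCNNGGG the shares there were 8.67%, 7.41% and 8.21%, so that the order of E11.5-only and shared sites turned for the EBF core. ACAAAG, the SOX core, was in 11.7% of the E11.5-only sites and 18.0% of the distal genome, and in 11.9% and 12.9% at 50 to 60% GC. CTTTGA, the TCF and LEF core, which shares 5 letters with the SOX core, was in 9.39% and 15.6%, and in 9.60% and 10.6% at that GC. TAATTA, the homeodomain core, was rare in the sites, with 0.777% against 7.49% of the distal genome, and with 0.705% against 1.5% at 50 to 60% GC.

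Of the other 8 motifs, TTGGCA (NFI) was in 12.1% of the E11.5-only sites against 9.83% of the distal genome, GGAATG (TEAD) in 10.6% against 10.8%, TGANTCA (AP-1) in 4.88% against 6.02% and AGATAA (bound by the GATA factors) in 4.22% against 13.4%. At 50 to 60% GC AGATAA was in 4.20% against 5.81%. There TTGGCA was in 12.8% of the E11.5-only and 12.8% of the shared sites, and GGAATG in 11.3% and 12.1%. CCGGAA (ETS) was in 4.01% against 9.51% of the shared sites, and in 3.62% against 3.96% at that GC. ATGCAAAT (the octamer of POU factors), GCGCATGC (NRF1) and GCGCGAA (E2F) were each in under 1% of the E11.5-only sites, with 0.458%, 0.489% and 0.0878%. The distal genome had 1.76%, 0.194% and 0.0288% in the same order, and the shared sites 0.209%, 0.638% and 0.724%. A match is a run of letters and not a binding event, and the windows differ in GC content.

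**Figure D5:**
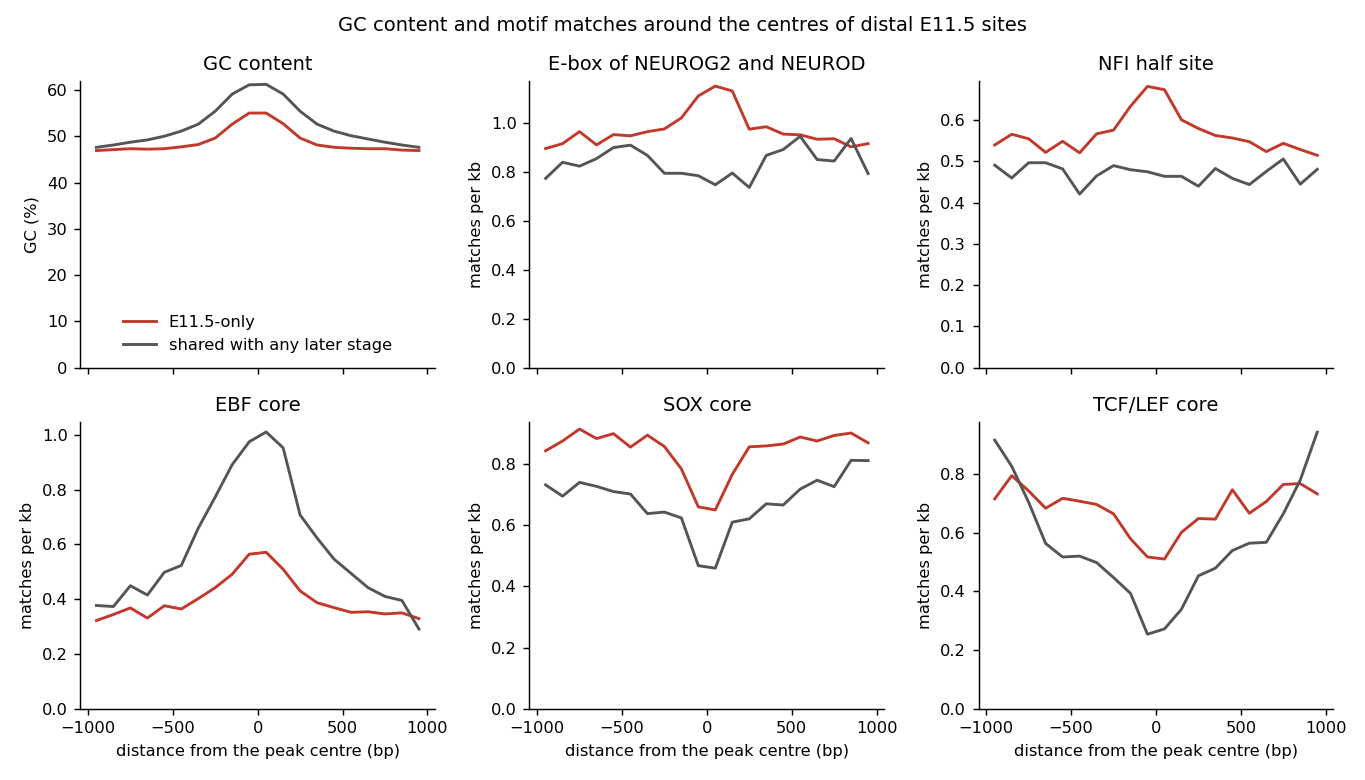
GC content (y axis, %) and matches per kb of 5 motifs (y axis) in bins of 100 bp by distance from the centre of the site (x axis, bp), for the 15952 E11.5-only and the 8150 shared distal sites. GC content rises to 55.0% at the centre of E11.5-only sites and to 61.2% in shared sites. The NEUROG2 and NEUROD E-box has 1.13 matches per kb at the centre and 0.927 in the flanks of E11.5-only sites. In shared sites it has 0.766 and 0.856. The profiles are not matched for GC content.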

How the data were processed

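H3K27ac and H3K27me3 were measured by ChIP-seq in 15 ChIP libraries with 8 input libraries, and 1 peak list per group, 8 in all, was used here. Per the submitters' processing notes and the study's methods, the authors aligned reads to mm10 with Bowtie (version 1.1.2), allowing up to 3 mismatches, and called peaks with MACS at p = 1e-05. The version of MACS, how each list was made from the libraries of its group and how inputs were used are not given in the sources used here. The deposited lists hold positions and a score that is 0 in every row, so peak heights and depth were unknown, a peak that fell just short of the calling threshold counts as absent, and a longer list overlaps more sites. BED starts count from 0 and are printed counted from 1.

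Protein-coding TSSs were the 5′ ends of 21755 GENCODE M21 genes, and sequence came from RefSeq GRCm38.p6. Overlap meant 1 bp or more. The distal genome was sampled in windows of 200 bp every 10 kb, at the same distance from TSSs. Exon, intron and intergenic sequence were assigned in that order by the peak centre. Python 3.11.15, numpy 2.4.6, pandas 2.3.3, pysam 0.24.0, samtools 1.23.1 and matplotlib 3.10.9 were used, and the interval code was tested on simulated data. Intervals are Wilson 95% intervals. No test was run, as there was 1 list per group.

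The sites and the 17 gene lists (272 entries, of which 1 symbol was not found) were chosen with earlier results of these data known. Genes named were the 10 with most sites and, per list, up to 3 genes with most sites and at least 2. Regions named were the 5 widest sites, the 3 largest runs and 1 printed sequence for 7 lists. Other listed genes and 3 sites of named genes were chosen after their values were seen. Among the genes and motifs these rules gave, 3 are not reported here. Alternatives were other overlap rules, distances, widths, lists and windows.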

Additional observations from a re-analysis of the deposited data

How the results depend on the processing

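No paired analysis was possible because the results come from no test and the lists carry no replicates. Of the 48 alternative values of the main results, 25 kept close to the main value (a share within its interval, a count within 1.5 times) and 23 did not. The E11.5-only share of distal sites (66.2%) became 81.9% when a later peak had to overlap by 50% of both peaks, 50.9% when later peaks within 1 kb counted, 68.2% when sites near any annotated transcript start were left out, 39.2% for peaks of 300 bp or more, 78.5% with the E13.5 list shortened to its widest peaks, 91.0% against the E15.5 list alone, 69.9% against the E13.5 list alone and 66.8% on chromosomes 1 to 19. Under these changes in the same order, except the last, the share of E11.5-only sites on H3K27me3 of Ebf2-EGFP- cells (8.61%) was 14.9%, 7.20%, 7.76%, 15.4%, 11%, 16.9% and 9.59%, and in each setting it stayed below that of the shared sites, which ran from 32.9% to 55.7%. The share in introns (48.4%) became 46.9% with the 50% overlap, 46.7% away from any transcript start, 46.4% for peaks of 300 bp or more and 46.2% against the E15.5 list alone. Peaks of 300 bp or more left 1424 sites near 1045 genes. The CAGATG share (19.7%) was 18.9% for peaks of 300 bp or more and 10.3% in windows of 100 bp. Shorter windows hold fewer places for a match, and ACAAAG fell too, from 11.7% to 5.91%. Depth was unknown, so its part in the length of each later list, and with it in what counts as E11.5-only, was not tested.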
